A study of Mus musculus with 2 samples.

Results

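The genes of the proteasome were followed in long-read RNA sequencing of the mouse adrenal gland. They were taken by name: protein-coding genes whose symbol starts with Psma, Psmb, Psmc, Psmd, Psme or Psmg and a digit, without Psmb8, Psmb9 and Psmb10. The rule found 46 genes in the annotation, of which 44 had a read, among 16910 annotated nuclear genes with a read. They accounted for 780 transcript entries of 190730 in the deposited tables, 525 in the first library and 255 in the second.

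Both libraries hold adrenal gland total RNA from B6CASTF1/J females, 2 months of age. They are biological replicates 1 and 2 of 1 group, with no second condition. The biosample labels number the animals 3 and 4, but both library labels carry the number 3 and both samples give the same donor identifier. Whether the libraries stem from separate animals is therefore not settled by the labels, and each p-value below compares 2 libraries, whose spread may be purely technical. The cross is an F1 hybrid and its alleles are not separated in the tables.

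The proteasome is the barrel-shaped protease that degrades proteins tagged with ubiquitin. Its core particle, the 20S proteasome, stacks outer rings of alpha subunits on inner rings of beta subunits, and some of the beta subunits carry the cutting sites inside the barrel. The 19S regulatory particle sits on the barrel ends, binds ubiquitin, removes it and threads the substrate in with a ring of ATPases. Each subunit is built into the particle in a fixed number of copies, so their messages are commonly compared with each other. The gland itself makes steroid hormones in its cortex and catecholamines in its medulla.

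Each long read was taken as 1 RNA molecule, so levels are CPM, the gene's reads divided by the library's reads of annotated nuclear genes and scaled to 1e6, and are not divided by length. Replicate 1 held 1209457 such reads and replicate 2 held 502655. The 6 cortex markers and the 6 medulla markers were detected in both libraries. The summed level of the cortex markers was 63520 CPM in replicate 1 and 82960 CPM in replicate 2, and that of the medulla markers 11600 and 6698 CPM. The 4 fat markers summed to 7188 and 7283 CPM and the leukocyte markers, of which 3 of 6 were detected, to 588 and 619 CPM. In bulk RNA, fewer cells of a type and less RNA per cell cannot be told apart.

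Proteasome genes held 9868 reads in replicate 1 and 3429 in replicate 2. This was 0.816% and 0.682% of all reads of annotated nuclear genes. Detection required 3 or more reads in both libraries, which 41 of the 46 genes had. Their median level was 172 CPM, against 35.2 CPM over the 9942 detected genes of all kinds. The levels of the 41 genes had a similar order in both libraries, with r = 0.93 (Pearson) and rho = 0.92 (Spearman) between the log2 CPM values (a description across genes, which are not independent replicates). Across these genes the level had little relation to the length of the longest annotated transcript (r = 0.19).

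**Figure D1:**
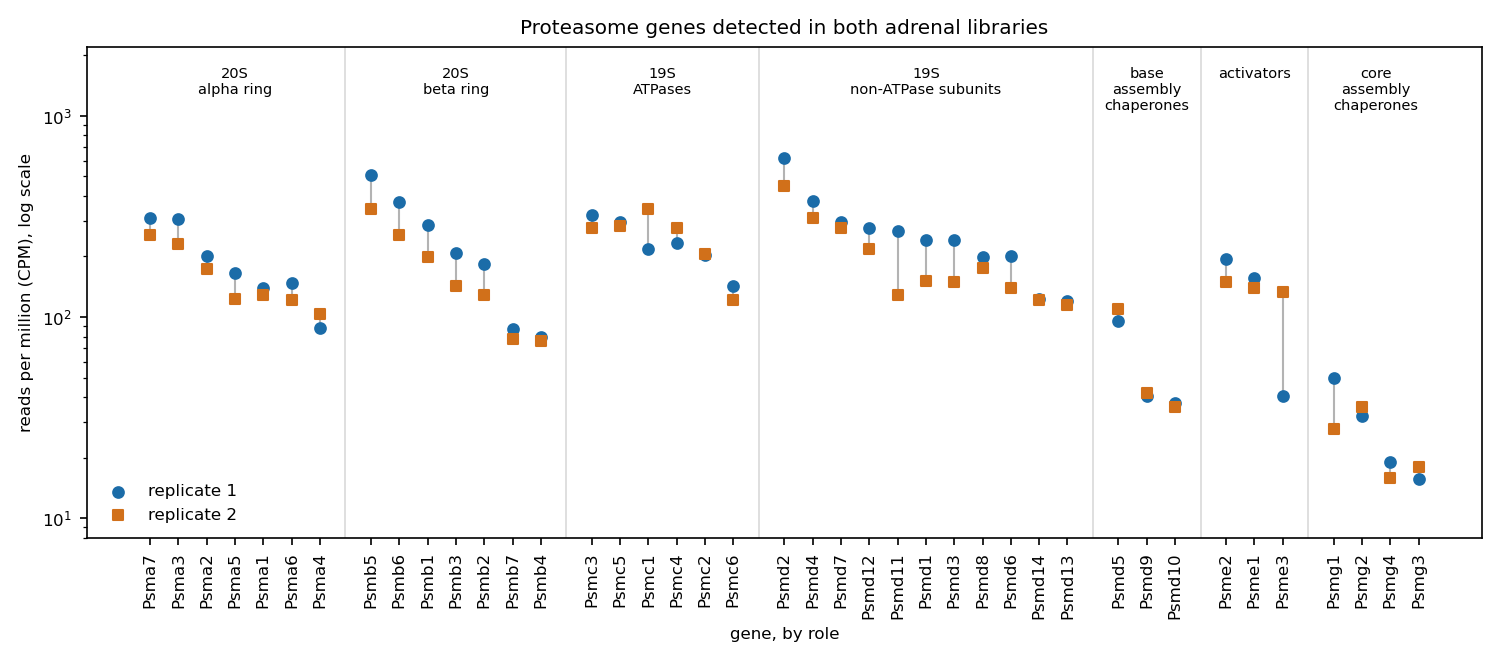
Level of each detected proteasome gene in CPM on a log axis, by role and, within a role, by mean level. Circles are replicate 1 and squares replicate 2, joined by a line. The structural subunits sit between 77.5 and 534 CPM in the mean, and the core assembly chaperones between 16.8 and 38.7 CPM.

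All 7 standard alpha subunits, which form the gate of the barrel, were detected. Psma7 (374 and 129 reads) and Psma3 (373 and 116 reads) were the most abundant, at 283 ± 37.2 and 270 ± 54.9 CPM (SD, n = 2). Psma4 was the least abundant at 96.0 ± 10.6 CPM, which leaves a range of 2.95-fold within the ring. Psma8, a paralogue of Psma7 used in male germ cells, had no read in either library. With 3 reads as the upper limit behind a 0, levels of up to 2.48 CPM (replicate 1) or 5.97 CPM (replicate 2) would still be possible, from counting error only. The 3 testis markers had 1 read in all, of Ddx4, with Tnp1 and Prm1 at 0.

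All 7 standard beta subunits were detected as well. The catalytic subunits Psmb5 (615 and 173 reads) and Psmb6 (449 and 128 reads) led the ring at 426 ± 116 and 313 ± 82.4 CPM. The third catalytic subunit, Psmb7, had 106 and 39 reads and 82.6 ± 7.11 CPM, close to Psmb4, a non-catalytic subunit and the least abundant of the ring at 77.5 ± 2.67 CPM. Within the ring the range was 5.50-fold. Psmb11, the beta subunit of cortical thymus epithelium, had no read, and of 3 thymus markers Foxn1 had no read and only Ccl25 was detected.

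Psmb8, Psmb9 and Psmb10, the inducible subunits that replace Psmb5, Psmb6 and Psmb7 in the immunoproteasome, were each lower than the subunit they replace, in both libraries. Psmb8 had 101 and 24 reads, Psmb9 had 27 and 10, and Psmb10 had 91 and 20. Their means were 65.6 ± 25.3, 21.1 ± 1.72 and 57.5 ± 25.1 CPM. In replicate 1 the level of Psmb10, 75.2 CPM, was close to the 87.6 CPM of Psmb7, whereas in replicate 2 it was 39.8 against 77.6 CPM.

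The 6 ATPases of the 19S base, which unfold the substrate, had the narrowest range of the structural groups. Psmc3, with 387 and 140 reads, was highest at 299 ± 29.3 CPM. Psmc5 stood at 290 ± 7.55, Psmc1 at 282 ± 88.4, Psmc4 at 254 ± 31.2 and Psmc2 at 205 ± 0.486 CPM. Psmc6 was lowest at 132 ± 15.3 CPM, 2.26-fold under Psmc3. Since SDs over 2 libraries are themselves imprecise, the order of Psmc3, Psmc5 and Psmc1 is not resolved by these data.

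All 11 non-ATPase subunits of the 19S particle that the rule names were detected. Psmd2 (Rpn1), the scaffold of the base that docks ubiquitin carriers, had the highest level of all proteasome genes, with 749 and 225 reads and 534 ± 121 CPM. Psmd4 (Rpn10), a ubiquitin receptor, followed with 457 and 157 reads and 345 ± 46.3 CPM. Psmd14 (Rpn11), the enzyme that removes ubiquitin chains, had 149 and 61 reads and 122 ± 1.30 CPM, and Psmd13 was lowest at 118 ± 3.18 CPM. The second large scaffold, Psmd1 (Rpn2), had 293 and 76 reads and 197 ± 64.4 CPM.

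The assembly chaperones named by the rule all lay under the median of the structural subunits, 197 CPM. Psmd5, Psmd9 and Psmd10, chaperones of the base, had 103 ± 9.55, 41.1 ± 0.894 and 36.5 ± 0.988 CPM. Psmg1 to Psmg4, which guide the alpha ring, had a median of 25.8 CPM and ran from 16.8 CPM for Psmg3 (19 and 9 reads) to 38.7 CPM for Psmg1 (60 and 14 reads). Pomp, the maturation factor of the core, is not named by the Psm rule and had 238 and 71 reads, or 169 ± 39.3 CPM, within the range of the structural subunits and above Psmb2, Psmb7 and Psmb4 in the mean.

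Of the activators that cap the core in place of the 19S particle, Psme1 and Psme2, the partners of the interferon-inducible cap, had 148 ± 12.03 and 172 ± 32.5 CPM. Psme3, the nuclear activator, had 86.9 ± 65.6 CPM. Psme4, a large activator with a role in spermatogenesis and DNA repair, had 6 and 2 reads and did not meet the detection rule. Psme2b, a gene with a single exon resembling Psme2, had 3 and 0 reads, all in its annotated transcript, and reads of such a copy may be shared with Psme2. Psmc3ip, a meiotic recombination factor caught by the name rule and not a proteasome subunit, had 9 and 2 reads. The 4 processed pseudogenes named after Psmb5, Psmb6 and Psmb7 had no read.

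For each gene, reads in the 2 libraries were compared with Fisher's exact test, two-sided, and p-values were adjusted by Benjamini-Hochberg over the 10170 genes with at least 10 reads in total, 42 of them proteasome genes. To be called, a gene had to pass an adjusted p of 0.05 and differ 2-fold or more. Among proteasome genes 1 was called higher and 1 lower in replicate 2 (2.38% each), against 5.96% higher and 3.59% lower of all genes tested, so calls were no more frequent than over all genes. Psme3 (chromosome 11, 101316213 to 101323537, mm10) had 49 reads in replicate 1 and 67 in replicate 2, or 40.5 and 133 CPM. Its log2 ratio was 1.71 ± 0.27 (counting SE; Fisher's exact test, adjusted p = 1.1e-08). Psmd11 (Rpn6), a lid subunit that clamps the 19S particle to the core (chromosome 11, 80428615 to 80473248), had 325 and 65 reads, or 269 and 129 CPM. Its log2 ratio was -1.05 ± 0.20 (Fisher's exact test, adjusted p = 2.6e-07).

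Without the fold minimum, 2 proteasome genes were higher in replicate 2 (4.76%) and 10 were lower (23.8%), against 9.34% and 8.58% of all genes tested. Passing without a fold minimum depends on depth. Among the 2496 genes of all kinds with a mean level between those of Psmb4 and Psmd2, 15.4% were higher and 19.3% lower. The 31 structural subunits that set this range had 1 higher (3.23%) and 10 lower (32.3%). No test compares these shares. The 2 higher proteasome genes were Psme3 and the ATPase Psmc1, with 265 and 173 reads and a log2 ratio of 0.65. The 10 lower proteasome genes were Psma3, Psmb1, Psmb3, Psmb5, Psmb6, Psmd1, Psmd2, Psmd3, Psmd6 and Psmd11. Of these 12 genes, 5 passed in the same direction under each of 8 other settings: Psmc1, Psmd2, Psmd3, Psmd11 and Psme3. With the trend against transcript length removed, 4 no longer passed. Psmb5 then had a log2 ratio of 0.03 in place of -0.56 and Psmb6 of -0.20 in place of -0.54, whereas Psmb3 and Psmd6 each kept -0.47 in place of -0.53. With replicate 1 thinned to the depth of replicate 2, Psma3 (-0.39), Psmb1 (-0.50), Psmb6 (-0.42) and Psmd1 (-0.50) did not pass, on fewer reads.

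The median log2 ratio of the 42 tested proteasome genes was -0.21, against -0.06 over all genes tested. Of the 42, 33 were below 0, against 5450 of all 10170 genes tested. Over the 2496 genes between Psmb4 and Psmd2 in mean level the median was -0.10, with 1453 below 0. Over the 31 structural subunits that set this range it was -0.27, with 27 below 0. By role the values were spread. All 7 beta subunits (median -0.51) and all 11 non-ATPase subunits named by the rule (median -0.34) were below 0. So were 6 of 7 alpha subunits (median -0.27), whereas the ATPases were split 3 to 3 (median -0.02). Some lay within a counting SE of 0, such as Psmd14 (-0.015), Psmd13 (-0.05) and Psmb4 (-0.06). Of non-ATPase subunits outside the rule, Adrm1 (Rpn13) had a log2 ratio of 1.04 and Sem1 of -0.96. The summed level of the beta ring was 1724 CPM in replicate 1 and 1224 CPM in replicate 2, and that of the ATPases 1414 and 1510 CPM. With the length trend removed the median over all 42 was -0.08, that of the beta ring -0.20 and that of the non-ATPase subunits -0.36. No test compares these groups, and the part that the differing cortex and medulla markers have in these ratios was not tested.

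**Figure D2:**
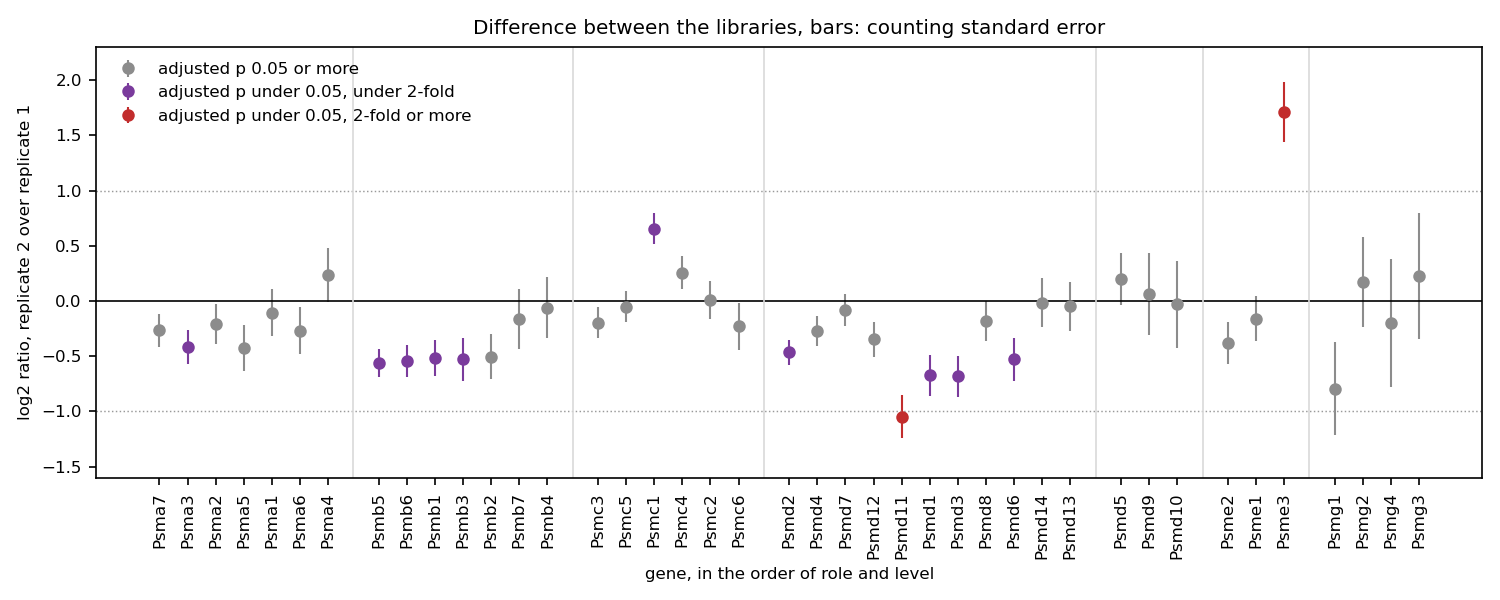
Log2 ratio of replicate 2 over replicate 1 for each detected proteasome gene, with bars of 1 counting SE. Dotted lines mark 2-fold, and only Psme3 and Psmd11 lie beyond them. The beta ring and the 19S non-ATPase subunits named Psmd lie below 0 throughout, some of them by less than their bar.

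Long reads also show which transcript each molecule came from. Of the reads of proteasome genes, 85.6% in replicate 1 and 87.9% in replicate 2 matched an annotated transcript in full (86.8% ± 1.58, n = 2), against 76.5% and 81.8% over all annotated nuclear genes. Incomplete splice matches, which hold only part of an annotated chain of introns, made up 10.3% and 7.41%, near the 11.6% and 7.08% over all genes. New combinations of known splice sites made up 1.53% and 2.13%, against 4.13% and 4.88% over all genes. Models with a splice site outside the annotation made up 1.74% and 2.28%, against 3.09% and 3.74%. The genomic class, which fits none of these, was at 0.760% and 0.321%, against 4.66% and 2.46% over all genes. Among annotated reads, 98.5% and 99.1% fell in transcripts annotated as protein coding, against 95.6% and 96.8% over all genes.

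In most of the genes that could be examined, nearly all fully spliced reads came from 1 transcript. The share of the main transcript among annotated and new spliced reads could be set side by side in the 29 proteasome genes with at least 50 such reads in each library. Its median was 95.7% and 95.5%, and it exceeded 90% in both libraries in 24 of 29 genes (82.8%), against 55.5% of the 1887 genes of all kinds. This leaves out incomplete reads. With reads of all classes in the denominator, 16 of 32 proteasome genes (50%) exceeded 90% in both libraries, against 23.6% of 2098 genes. Psmb5-201 made up 99.5% and 98.8% of such reads of Psmb5, and Psma2-201 99.1% and 98.8% of those of Psma2. To be called, the share had to differ by 10 percentage points or more, at an adjusted p of 0.05 in Fisher's exact test. None of the 29 was called in either direction, against 0.371% of all genes higher and 0.371% lower, and 3 had an unadjusted p under 0.05 (Psma6, Psmb6 and Psmd4).

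**Figure D3:**
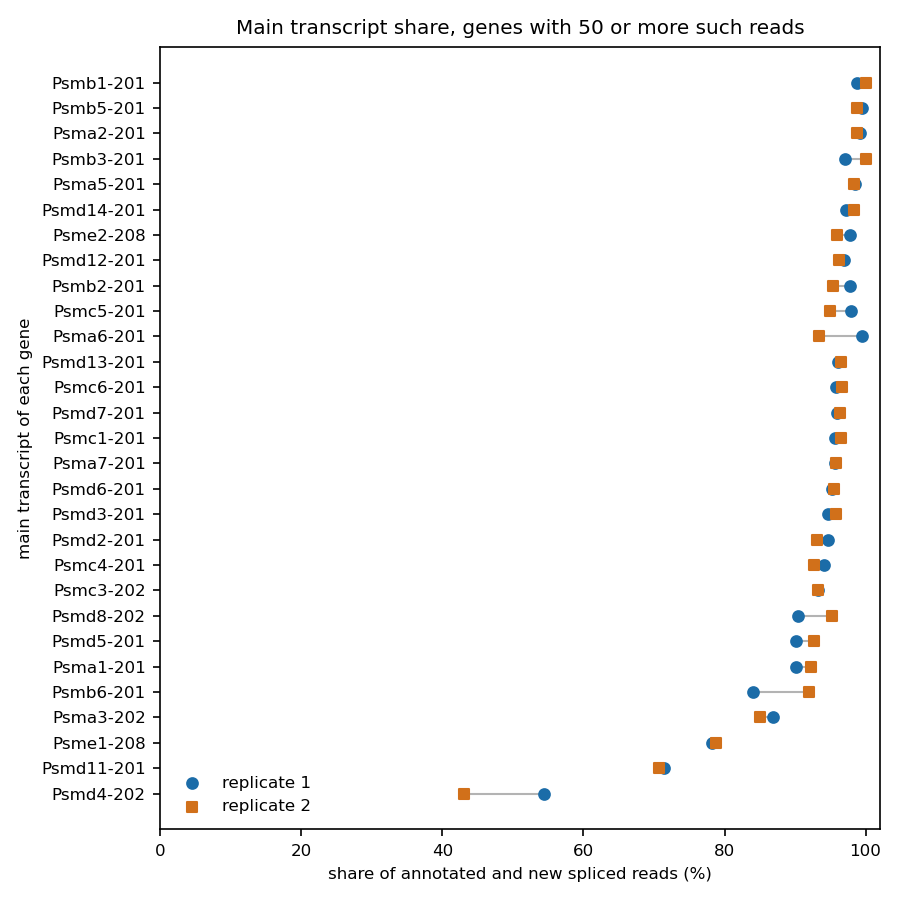
Share of the main transcript among annotated and new spliced reads in the 29 proteasome genes with at least 50 such reads in each library, in percent. Circles are replicate 1 and squares replicate 2. Only Psmd4, Psmd11 and Psme1 lie below 80% in both libraries.

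In 3 genes the main transcript stayed under 80% in both libraries, and Psmd4 had the most even mixture. Psmd4-202 had 234 and 65 reads and Psmd4-201 had 158 and 62. These forms differ at the start of an intron on chromosome 3 (95033765 to 95033917 in Psmd4-202, minus strand, mm10): Psmd4-201 keeps 9 more coding bases (95033909 to 95033917). These bases are in capitals in the stretch below, taken from the M21 transcripts, since they are the whole difference that separates the forms at this junction.
Psmd4-201: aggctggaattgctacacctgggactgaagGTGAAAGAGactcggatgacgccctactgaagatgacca
Psmd4-202: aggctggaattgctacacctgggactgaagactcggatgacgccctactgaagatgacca
The kept stretch starts with GT, the letters that open most introns, and has a length that keeps the reading frame. Of the reads of both forms, 40.3% in replicate 1 (exact Clopper-Pearson 95% interval 35.4 to 45.3%) and 48.8% in replicate 2 (39.9 to 57.8%) held the longer form. The share of Psmd4-202 among all spliced reads was 54.4% and 43.1% (Fisher's exact test, p = 0.018, adjusted p = 0.45), a difference that did not pass adjustment over all genes tested.

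Psmd11-201 made up 71.5% and 70.8% of the spliced reads of Psmd11. The next transcript, Psmd11-214, had 78 and 14 reads and lacks the last intron of Psmd11-201, which is 115 bases long (chromosome 11, 80471595 to 80471709). It held 25.5% and 23.3% of the reads of both forms, so the mixture was alike in the libraries although the level of Psmd11 was 2.07-fold higher in replicate 1. Psme1-208 made up 78.2% and 78.8% of the spliced reads of Psme1. Psme1-210, with 19 and 8 reads, has 1 more intron of 285 bases (chromosome 14, 55578249 to 55578533).

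Transcripts annotated as retaining an intron held 1.11% and 0.498% of annotated reads of proteasome genes, near the 1.07% and 0.705% over all genes. Of these reads, 60 of 94 in replicate 1 and 7 of 15 in replicate 2 belonged to Psmb6-202, a model of 2 exons that starts within the fourth intron of Psmb6-201. Transcripts annotated as subject to nonsense-mediated decay held 0.367% and 0.332%, against 0.294% and 0.298% over all genes, among them Psma3-201 with 14 and 4 reads.

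Spliced models outside the annotation were many and thin. Matched by their introns, 219 such models had a read in replicate 1 and 118 in replicate 2, and 42 had one in both. Of the 295 models in either library, 229 rested on a single read. Only 4 models in 3 genes had at least 3 reads in both libraries.

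Psmd4 held 2 of them, with 9 and 7 and with 4 and 5 reads. Both keep an intron of 539 bases (chromosome 3, 95034027 to 95034565), one on the background of each of the forms above. Psmc4, an ATPase, held a model with 3 and 4 reads whose intron (chromosome 7, 28041919 to 28042100) is 2 bases longer than the annotated 180 bases.

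The third gene was Psmd8 (Rpn12), a lid subunit of the 19S particle. In a model with 10 and 3 reads, the first exon is joined to a point within the fourth by an intron of 3079 bases (chromosome 7, 29177198 to 29180276, minus strand). It removes the second exon (73 bases), the third (103 bases) and the first 34 bases of the fourth, 210 coding bases in all, which is a multiple of 3. The removed part of the fourth exon is shown in capitals with 15 bases on each side, because its end is the splice site that is not in the annotation.
Psmd8-202: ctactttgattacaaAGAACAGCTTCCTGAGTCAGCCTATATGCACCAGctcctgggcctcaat
The skipped stretch ends in AG, the letters that close most introns. The annotated transcript Psmd8-202 had 199 and 80 reads.

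**Figure D4:**
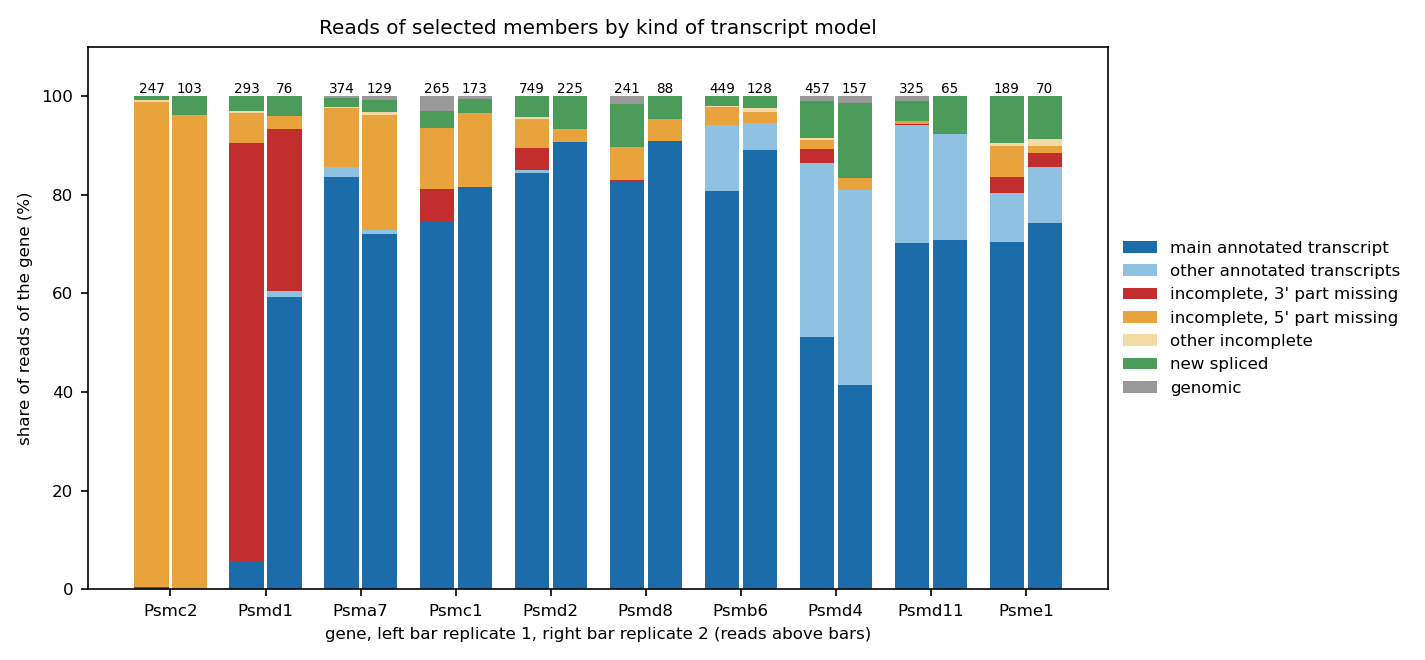
Reads of 10 proteasome genes by kind of transcript model, in percent of the gene's reads, with the left bar for replicate 1 and the right bar for replicate 2. Numbers above the bars are reads. Psmc2 consists almost wholly of models that lack the 5' part in both libraries, and Psmd1 mostly of models that lack the 3' part in replicate 1 only.

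Incomplete reads were concentrated in a pair of genes. Reads that lack the 3′ part made up 3.59% and 0.962% of the reads of proteasome genes, against 1.72% and 0.664% over all genes. Among reads that lack the 5′ part, Psmc2 held 243 of 623 in replicate 1 and 99 of 211 in replicate 2. Among reads that lack the 3′ part, Psmd1 held 249 of 354 and 25 of 33. When reads of all classes were counted in the denominator, 32 proteasome genes could be tested for the share of the main transcript. Psmd1 was called higher and Psma7 lower in replicate 2, against 15.7% of the 2098 genes tested called higher and 0.763% called lower.

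For Psmc2 (Rpt1), an ATPase (chromosome 5, 21785283 to 21803787), the annotated transcript Psmc2-201 had 1 and 0 reads. A model of 12 exons that begins at the second exon had 241 of 247 reads in replicate 1, or 97.6% (95% interval 94.8 to 99.1%), and 98 of 103 in replicate 2, or 95.1% (89.0 to 98.4%). The coding sequence begins 39 bases into that exon, at 21786689, so the model still holds all of it. The end of the first intron, directly before the deposited start of the model at 21786650, reads as follows on the plus strand (RefSeq promoter table, GRCm38.p6, chr5:21786610-21786649), with the last bases of the intron in capitals.
Psmc2 intron 1 end: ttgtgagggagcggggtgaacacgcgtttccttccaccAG
The deposited start falls exactly behind the splice acceptor. This stretch lies in a second RefSeq promoter window of Psmc2 (21786497 to 21786796), whose RefSeq start falls within the second exon, past the coding start given above. The sources used here do not say whether ends of models were moved to annotated exon borders, so this base need not be where the molecules started.

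Psmd1 (Rpn2; chromosome 1, 86064387 to 86139151) was the gene whose reads differed most in kind between the libraries. The full transcript Psmd1-201, of 25 exons, had 16 of 293 reads in replicate 1, or 5.46% (95% interval 3.15 to 8.72%), and 45 of 76 in replicate 2, or 59.2% (47.3 to 70.4%). The difference was 53.7 percentage points (Fisher's exact test, adjusted p = 3.4e-22). A model that ends within exon 22 had 221 reads in replicate 1 (75.4%) and 23 in replicate 2 (30.3%). Its deposited end coincides with the end of an annotated transcript of the gene that had no read. As for Psmc2, the deposited end need not be where the molecules ended.

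The level of Psmd1 therefore depends on which reads are counted. Over all classes it was lower in replicate 2, at 242 and 151 CPM (log2 ratio -0.67, Fisher's exact test, adjusted p = 0.0018). Over annotated models alone it was higher in replicate 2 (log2 ratio 2.66, adjusted p = 1.0e-10). Models that reach the last exon had 19 and 50 reads, or 15.7 and 99.5 CPM.

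No other proteasome gene had a model lacking the 3′ part with as large a share of its reads. In Psmd2 a model of 15 exons had 31 reads in replicate 1 (4.14%) and none in replicate 2, where 0 of 225 reads allows a share of up to 1.63% by the exact interval. The 21-exon model of Psmd1 had 24 and 1 reads, and a 2-exon model of Psmc1 had 8 and 0.

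Reads that lack the 5′ part made up 6.31% of the reads of proteasome genes in replicate 1 and 6.15% in replicate 2. Over all genes they made up 7.25% and 5.41%. Single genes moved either way. The share was lower in replicate 2 in Psmb7 (17.9 and 5.13%), Psmd3 (8.9 and 2.67%) and Psmd2 (5.87 and 2.67%). Some such models had reads only in replicate 1, the deeper library, such as a 17-exon model of Psmd2 with 10 and 0 reads. In Psma7 and Psmc1 the share was higher in replicate 2. In Psma7 a model of 4 exons had 44 reads in replicate 1 (11.8%, 95% interval 8.68 to 15.5%) and 27 in replicate 2 (20.9%, 14.3 to 29.0%). Psma7-201 made up 83.7% of all reads of the gene in replicate 1 and 72.1% in replicate 2 (Fisher's exact test, adjusted p = 0.034). In Psmc1 a model of 10 exons lacks the first splice junction, and its deposited start, at 100110215 on chromosome 12, lies within the first intron of Psmc1-201. It had 17 reads (6.42%, 3.78 to 10.1%) and 25 reads (14.5%, 9.57 to 20.6%), and its gene was among those higher in replicate 2.

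Promoter windows, from 250 bases before to 50 bases after a RefSeq start (GRCm38.p6), were found for 38 of the 46 genes, 41 windows in all. The antioxidant response core TGACNNNGC, the letters bound by the factors encoded by Nfe2l1 and Nfe2l2, was found on either strand in 6 windows (14.6%), against 12.4% of all 32851 windows. CCAAT was found in 14 windows (34.1%), against 37.4%. These are matches of letters in a short window only.

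Genes that work with the proteasome were taken from a list of 38, of which 37 were detected. At the same thresholds 8 (21.6%) were called higher in replicate 2 and none lower, by Fisher's exact test, against 5.96% and 3.59% of all genes tested. At any fold 11 (29.7%) were higher and 10 (27.0%) lower, against 9.34% and 8.58%. Passing at any fold depends on depth. The detected genes of the list had a median of 110 CPM, against 35.2 CPM over all detected genes. Among the 2496 genes between Psmb4 and Psmd2 in mean level, 15.4% were higher and 19.3% lower. The list spans a wider range, from 15.6 to 3028 CPM. The median log2 ratio of the list was -0.12. Among ubiquitin receptors and carriers, Adrm1 (Rpn13) had 223 and 191 reads (184 and 380 CPM), Ubqln1 had 79 and 101 reads, and Ubqln4 had 82 and 108 reads, and all were called higher, as were Ubqln2, Psmf1, Ddi2, Zfand2a and Ipo9. Sem1, the smallest lid subunit, had 241 and 51 reads, or 199 and 101 CPM, and was lower at any fold (log2 ratio -0.96, adjusted p = 6.2e-05). The ubiquitin gene Ubb, with 3839 and 1449 reads, was the most abundant of the list. Nfe2l1, which encodes the transcription factor that raises proteasome genes when proteasome activity falls, had 728 and 232 reads and 532 ± 99.3 CPM. Its relative Nfe2l2 had 72 and 56 reads, and Nfe2l3 had none.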

How the data were processed

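The authors deposited 1 table per library of whole-number read counts per transcript model, not normalised, with matching models on mm10 and GENCODE M21, per the file headers and readmes. Version 3.0 of an ENCODE long-read document is cited per the labels' protocols, and new models carry the source TALON. For the platform, the aligner and the TALON version, the sources used here give nothing. The labels state an RNA input (1 µg) for replicate 1 alone. Counts were summed per gene over all classes, and spike-ins, mitochondrial genes and new genes were left out of the CPM totals. Log2 ratios used 0.5 added reads. Coordinates are those of M21. The tests (scipy 1.17.1) were tried on simulated counts. Alternatives used scaling by TMM (edgeR 4.0.16) and median of ratios (DESeq2 1.42.0), with an exact binomial test. Named genes were chosen by role within the list, the related list and the calls. The members and lists were chosen with earlier results of these data known. Intervals cover counting error only. Some items are not reported here.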

Additional observations from a re-analysis of the deposited data

Results flagged for a closer look

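New gene models that the authors placed on the strand opposite to a proteasome gene were outside the comparisons above. Those with more reads than the 3 that a count of 0 allows were all in replicate 1. This limit is in reads and is passed more easily in replicate 1, the deeper library (1209457 against 502655 reads). In replicate 1 such models held 33 reads over Psmd11, where replicate 2 had 3, and 12 reads over Psmb4, where replicate 2 had none. Over Psmc2, Psmd12, Psmd2, Psmd4 and Psme3 they held 5 reads each, where replicate 2 had 2 over Psmc2 and 1 over Psme3. Below the limit, Psmb1 had 2 such reads in replicate 1 and 3 in replicate 2. The sources used here do not state how strand was assigned, so the share of these reads that belongs to the proteasome genes themselves was not tested.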

How the results depend on the processing

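No paired analysis was possible because both libraries belong to 1 group. Leaving out a library leaves no comparison, so for counts and shares each library was taken alone. Without a fold minimum 12 proteasome genes passed in place of 2. With reads of all classes in the denominator 2 genes were called by main transcript share in place of 0. New transcripts in both libraries numbered 42 with at least 1 read in each and 1 with at least 5, in place of 4, and with 1 library alone 5 to 24 had at least 3 reads. Direction reversed for Psmd1 with annotated models alone (log2 ratio 2.66) and for Psmb5 with the length trend removed (0.026), and 7 other values of single genes no longer passed. The median log2 ratio, -0.21, ran from -0.28 with replicate 1 thinned to -0.08 with the length trend removed under its 8 alternatives. Counts of detected genes (39 to 44) moved by less than the limit set for them. The annotated share ran from 85.6 to 87.9%. Its limit was the SD of the 2 libraries, which a library taken alone cannot exceed by construction, so those values do not measure stability. The depth of replicate 2 limits genes of few reads, among them Psmg3, Psmg4, Psme4 and Psmc3ip.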
